A study of Mus musculus with 16 samples.

Results

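Cyclins are the regulatory subunits of the cyclin-dependent kinases, and 10 of them that act between G1 and mitosis were followed here in cultured neural stem cells of the adult mouse. They were Ccnd1, Ccnd2 and Ccnd3 of the D type, Ccne1 and Ccne2 of the E type, Ccna2, Ccnb1, Ccnb2, Ccnf and Ccng2. A cyclin was measured by the array probe sets whose annotation gave its symbol alone, and the probe set with the highest mean signal stood for the gene, with the others as a check. By this rule 9 of the 10 cyclins had 19 probe sets, out of 20380 probe sets with 1 symbol and 12393 genes in the whole series. Ccnb1 was matched to none and was not analysed here. All 9 measured cyclins were among the 7619 genes bright enough to be tested.

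The series asked which genes depend on Tlx (Nr2e1), an orphan nuclear receptor of neural stem cells, and hybridised 16 RNA samples to 1 array each. All cultures carried Tlx(f/Z), a genotype that the labels do not spell out further. Cultures with CreER, a recombinase that 4-hydroxytamoxifen (4OHT) activates, received 4OHT or vehicle, and so did Tlx(f/Z) cultures without Cre, and RNA was taken after 36 h or 60 h. The 8 groups were CreER with 4OHT at 36 h, CreER with vehicle at 36 h, CreER with 4OHT at 60 h, CreER with vehicle at 60 h, and the same 4 without Cre, each with 2 arrays, which the design text calls biological replicates. The promoter that drives CreER, the dose of 4OHT, the age of the mice and the number of animals behind each culture are not given in the sources used here. CreER and its absence therefore cannot be told apart from other differences between the cultures of each genotype. In bulk RNA, fewer cells of a type and less RNA per cell cannot be told apart either.

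The D-type cyclins bind Cdk4 and Cdk6 in G1 and answer to growth signals, and the E-type cyclins bind Cdk2 as cells enter S phase. Cyclin A2 works in S phase and G2 with Cdk2 and Cdk1, and the B-type cyclins bring Cdk1 to mitosis, after which A- and B-type cyclins are destroyed through the anaphase-promoting complex. Cyclin F is the substrate-binding part of an SCF ubiquitin ligase and peaks in G2, and cyclin G2 is an atypical cyclin linked to cell cycle arrest and raised by FoxO factors.

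Signals are linear array intensities, as deposited, and a change is the difference of mean log2(signal + 16), where a positive value means higher in the group named first. Tests are by limma over all 7619 genes, and a gene is called at a Benjamini-Hochberg adjusted p under 0.05. The median signal of an array lay between 92.2 and 132.6. Because whole arrays differed in brightness, each call was also read after quantile normalization, which gives every array the same distribution of signals. This moved the median change of all genes by over 0.1 (log2) in 3 of the comparisons: from -0.11 to 0.01 for 4OHT in CreER cultures at 60 h, from -0.15 to 0.00 for 4OHT without Cre at 36 h, and from -0.13 to 0.02 for CreER against no Cre under vehicle. Nr2e1 itself was not analysed here, so the recombination of Tlx was not checked. The Esr1 probe set, whose place relative to the receptor part of CreER was not checked, read 279 to 444 on CreER arrays and 11.7 to 32.2 on arrays without Cre, with no overlap between the labelled genotypes. The actin control probe sets gave a 5′ over 3′ signal ratio, which tracks intact RNA and full-length labelling, of 0.548 to 0.666 on the 4 arrays without Cre at 36 h and 0.716 to 0.891 on the other 12. Of 10 neural stem cell markers, 8 were bright enough to test. Markers of endothelial and mural cells (0 of 6 tested), fibroblasts (0 of 6) and ependymal cells (0 of 1 with a probe set) were all below that level.

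In CreER cultures with 4OHT the RNA of Ccne1, Ccne2, Ccna2 and Ccnb2 was lower than with vehicle, while Ccnf, Ccng2 and the 3 D-type cyclins did not pass the test as deposited. Over both times 4 of the 9 cyclins were lower and 0 were higher, where 8.36% of all genes tested were lower, 4.00% higher and 12.4% changed in either direction. The median change of the 9 cyclins was -0.37, against -0.07 for all genes. After quantile normalization 5 were lower and 2 were higher, beside 19.1% and 19.6% of all genes and 38.8% in either direction. The cyclins added were Ccnf, lower, and Ccnd1 and Ccnd2, higher.

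**Figure D1:**
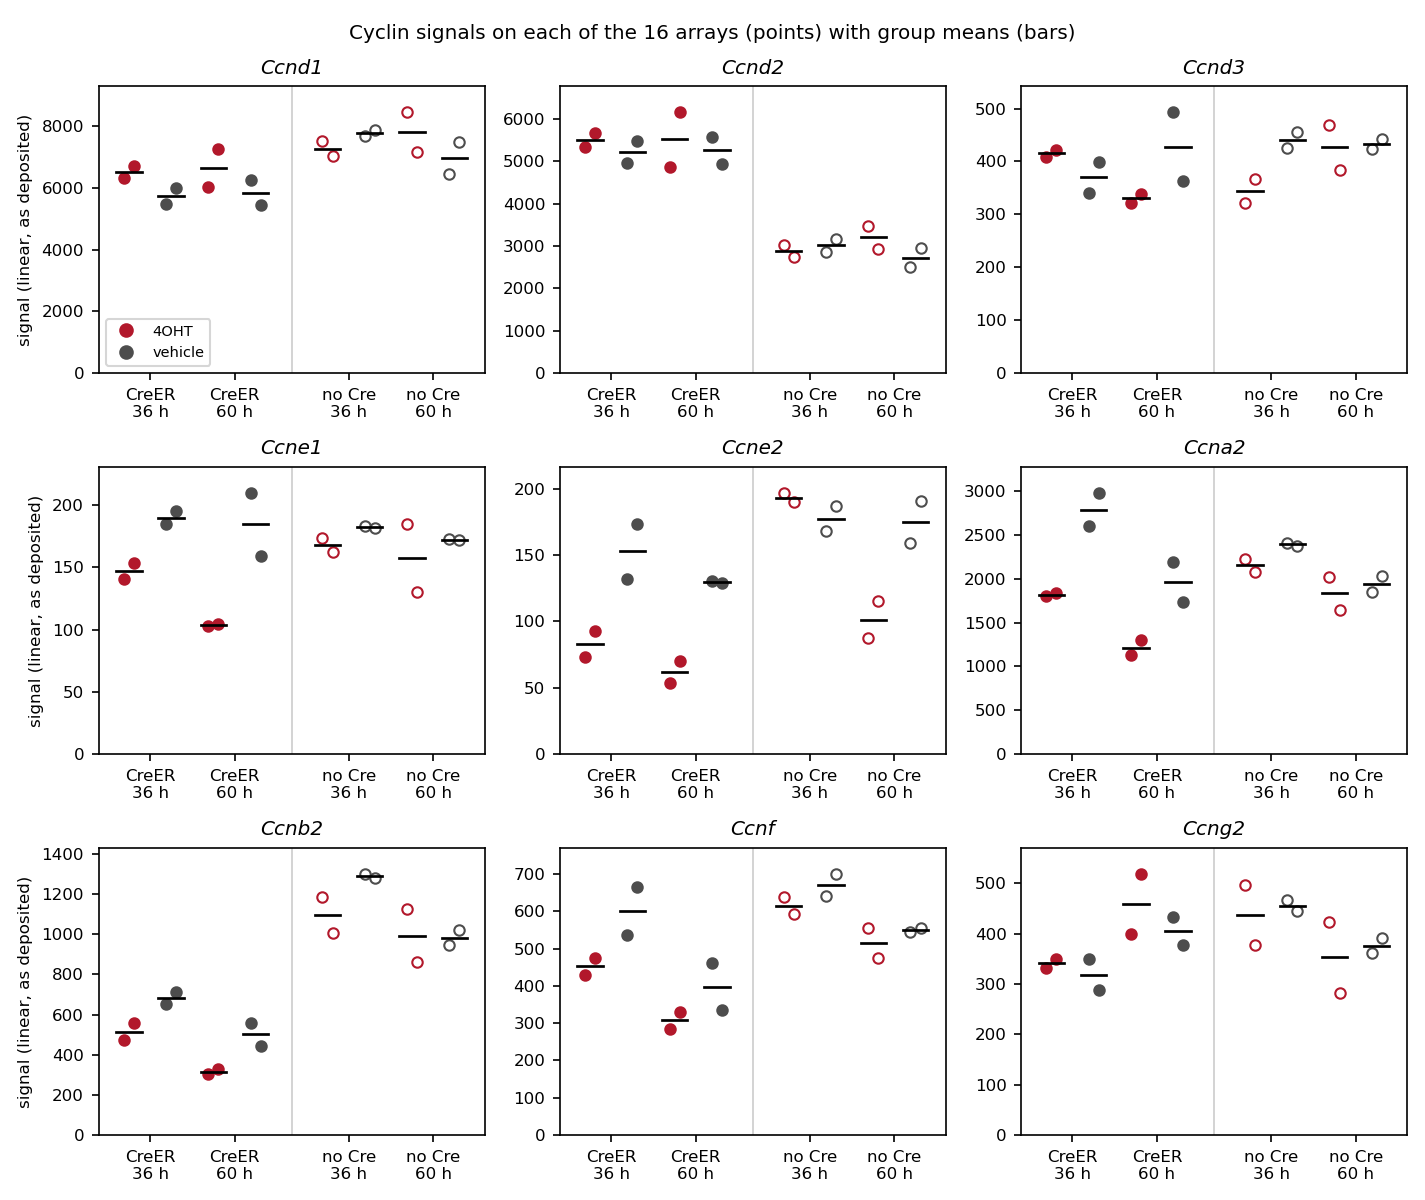
Signal of the brightest probe set of 9 cyclins (vertical axes, linear, from 0) on each of the 16 arrays, with 4OHT in red, vehicle in grey, CreER filled and no Cre open; bars are means of 2 arrays. In CreER cultures the 4OHT arrays of Ccne1, Ccne2, Ccna2, Ccnb2 and Ccnf lie below the vehicle arrays at both times, and the arrays of Ccnd2 and Ccnb2 fall into separate ranges by genotype.

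Ccne2, an E-type cyclin, had signals of 73.3 and 92.8 in CreER cultures with 4OHT at 36 h, against 132 and 174 with vehicle. At 60 h they were 53.4 and 70.2 with 4OHT, against 130.4 and 129 with vehicle. All 4 arrays with 4OHT lay below all 4 with vehicle. Over both times its mean signal fell by 48.7% (log2 change -0.84, SE 0.15, adjusted p = 2.49e-06), which was the largest fall among the 9 cyclins. Ccne1, its paralog, had 141 and 153 with 4OHT at 36 h against 185 and 195 with vehicle, and 103 and 104 with 4OHT at 60 h against 209.6 and 159 with vehicle. Here too every 4OHT array was below every vehicle array, with the lowest signals at 60 h. The mean signal of Ccne1 fell by 33.1% over both times (log2 change -0.54, SE 0.14, adjusted p = 0.00390).

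Ccna2, the cyclin of S phase and G2, read 1805 and 1835 with 4OHT at 36 h, against 2597 and 2978 with vehicle, in CreER cultures. At 60 h it read 1129.7 and 1297 with 4OHT, against 2195 and 1738 with vehicle. The groups did not overlap at either time when compared within it, and 1 vehicle array of 60 h lay below both 4OHT arrays of 36 h. The mean signal fell by 36.2% (log2 change -0.65, SE 0.12, adjusted p = 6.59e-06), and its second probe set gave a change of -0.63 (adjusted p = 3.66e-05 over all probe sets). Leaving out any 1 of the 16 arrays kept the calls of Ccna2, Ccne1 and Ccne2 over both times, with changes of -0.73 to -0.56, -0.63 to -0.45 and -0.93 to -0.75 in that order.

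Ccnb2, a mitotic cyclin, had 471 and 559 with 4OHT at 36 h, against 651 and 714 with vehicle, in CreER cultures. At 60 h it had 303 and 328 with 4OHT, against 559.9 and 445 with vehicle. The groups were apart at both times, and over both times the mean signal fell by 29.9% (log2 change -0.52, SE 0.13, adjusted p = 0.00216). Without the first 4OHT array of 36 h the change was -0.46 and the call was lost (adjusted p = 0.0510). Ccnf had 430.3 and 475 with 4OHT at 36 h against 537 and 666 with vehicle, and 285 and 331 with 4OHT at 60 h against 462 and 334 with vehicle. Its groups were also apart, though at 60 h the higher 4OHT array and the lower vehicle array nearly met. Ccnf missed the threshold as deposited (log2 change -0.37, SE 0.13, adjusted p = 0.0504) and passed it after quantile normalization at -0.27 (adjusted p = 0.00118), after median scaling at -0.32 (adjusted p = 8.89e-04) and with the actin ratio as a covariate at -0.38 (adjusted p = 0.0164).

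The promoters of Ccnb2, Ccnf and Ccne1 are shown because these cyclins act at different stages and, as deposited for Ccnb2 and Ccne1 and after rescaling for Ccnf, were lower after 4OHT. RefSeq tables of build GRCm38.p6 held promoter entries for 6 of the 10 cyclins; Ccna2, Ccnd1, Ccnd2 and Ccne2 were not among them. Each line gives the 250 bases before the transcription start, 5′ to 3′ on the gene's strand, which is the minus strand in all of them, and capitals mark matches to the motifs searched.
Ccnb2, chr9:70421555-70421804: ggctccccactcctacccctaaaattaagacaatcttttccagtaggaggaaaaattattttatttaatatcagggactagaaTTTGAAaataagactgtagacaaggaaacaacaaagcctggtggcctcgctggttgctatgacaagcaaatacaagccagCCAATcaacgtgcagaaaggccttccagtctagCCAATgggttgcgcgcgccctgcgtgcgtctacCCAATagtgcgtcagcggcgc
Ccnf, chr17:24251410-24251659: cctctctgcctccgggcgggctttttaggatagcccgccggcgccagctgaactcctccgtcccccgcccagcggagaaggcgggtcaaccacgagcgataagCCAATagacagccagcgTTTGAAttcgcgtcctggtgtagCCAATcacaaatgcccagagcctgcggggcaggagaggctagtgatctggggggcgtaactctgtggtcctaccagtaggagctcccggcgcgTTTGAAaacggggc
Ccne1, chr7:38107491-38107740: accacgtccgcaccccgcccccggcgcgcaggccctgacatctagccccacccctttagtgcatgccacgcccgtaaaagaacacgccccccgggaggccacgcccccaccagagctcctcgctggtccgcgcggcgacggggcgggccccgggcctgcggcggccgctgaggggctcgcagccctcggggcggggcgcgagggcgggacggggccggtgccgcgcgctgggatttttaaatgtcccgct
The motifs, searched on both strands, were the CCAAT box (CCAAT), the cell cycle homology region or CHR (TTTGAA), E2F sites (TTCCCGC or TTGGCGC) and the forkhead site TGTTTAC. The CCAAT box and the CHR are known from promoters of G2 and mitotic genes, and E2F sites from genes of the G1 to S transition. Ccnb2 held 3 CCAAT boxes, with first bases at -87, -54 and -21 from the start, and 1 CHR at -167. Ccnf held 2 CCAAT boxes, at -147 and -107, and 2 CHR matches, at -130 and -14. Ccne1 held 0 matches to any of them in this window. Of 32851 mouse promoters of the same length, 33.8% held a CCAAT box, 16.0% a CHR, 5.62% an E2F site and 3.17% the forkhead site. A match is no evidence of a bound site, and the absence of one says only that these letters are not in the window. Of the other entries, Ccnb1 held 2 CCAAT boxes, at -99 and -67, and 1 E2F match on the other strand at -102 that overlaps the first of them. The 2 entries of Ccnd3 held 1 forkhead match at -243 and 1 CCAAT box at -108, and Ccng2 held 0 matches.

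On their brightest probe sets, none of the 3 D-type cyclins of G1 passed the test in CreER cultures as deposited. Ccnd1 had 6339 and 6727 with 4OHT at 36 h, against 5481 and 6008 with vehicle, and 6034 and 7281 with 4OHT at 60 h, against 6264 and 5439.6 with vehicle. Its 4OHT arrays were higher at 36 h and overlapped the vehicle arrays at 60 h. The change over both times did not pass the test as deposited (log2 change 0.18, SE 0.09, adjusted p = 0.195) and was called higher after quantile normalization at 0.21 (adjusted p = 4.72e-06). Ccnd2, the D-type cyclin typical of neural progenitors, averaged 5498 ± 232 with 4OHT and 5219 ± 376 with vehicle at 36 h (SD, n = 2 each), and 5514 ± 909.7 with 4OHT and 5261 ± 452 with vehicle at 60 h. Its arrays overlapped at both times, with a change of 0.07 (SE 0.11, adjusted p = 0.749), against 0.10 (adjusted p = 0.0196) after quantile normalization.

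Ccnd3, the third D-type cyclin, had 409 and 422 with 4OHT at 36 h, against 340.3 and 399.5 with vehicle, and 322 and 339 with 4OHT at 60 h, against 493 and 362 with vehicle. Both 4OHT arrays were above the vehicle arrays at 36 h and below them at 60 h. Neither change passed the test (0.17, adjusted p = 0.836 at 36 h; -0.34, adjusted p = 0.305 at 60 h), and nor did the difference between them (-0.51, SE 0.27, adjusted p = 1.0; -0.42, adjusted p = 0.124 after quantile normalization). Ccng2 had 333 and 350.5 with 4OHT at 36 h against 349 and 288 with vehicle, and 398 and 518 with 4OHT at 60 h against 432 and 377 with vehicle. Its arrays overlapped at both times, and its change over both times was 0.13 (SE 0.13, adjusted p = 0.579). After quantile normalization that change was 0.21 and did not pass the test either (adjusted p = 0.106). On that scale (log2) the 60 h arrays read 9.02 and 9.08 with 4OHT, above 8.72 and 8.84 with vehicle. Those of 36 h still overlapped.

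At 36 h alone, 2 cyclins were lower after 4OHT in CreER cultures, Ccne2 (log2 change -0.77, SE 0.21, adjusted p = 0.0207) and Ccna2 (log2 change -0.61, SE 0.17, adjusted p = 0.0217), where 1.50% of genes were lower and 2.61% called in all. At 60 h alone, 4 were lower, where 4.63% of genes were lower: Ccne2 (-0.91, adjusted p = 0.00113), Ccne1 (-0.73, adjusted p = 0.00903), Ccna2 (-0.68, adjusted p = 0.00265) and Ccnb2 (-0.64, adjusted p = 0.0160). After quantile normalization 5 cyclins were called at 36 h, the added ones being Ccnb2 (-0.35) and Ccnf (-0.33) lower and Ccnd1 higher (0.17), where 21.4% of genes were called. At 60 h 7 were then called, with Ccnf lower (-0.21) and Ccnd1 (0.25) and Ccnd2 (0.13) higher, where 29.8% were. The test of the difference between the responses at 60 h and 36 h called 0 of the 9 cyclins in limma, with 0 at an unadjusted p under 0.05, where 0.197% of genes were called and 4.28% were at an unadjusted p under 0.05. After quantile normalization it also called 0, with 1 at an unadjusted p under 0.05, where the shares were 2.22% and 18.7%. Counting arrays instead of tests, 5 cyclins had both 4OHT arrays below both vehicle arrays at 36 h and 6 at 60 h, where 27.6% and 24.4% of genes did. Both arrays were above in 2 cyclins at 36 h and 0 at 60 h, where 17.0% and 7.49% of genes were.

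Calls at a single time rested on few arrays. At 36 h that of Ccna2 was lost without any 1 of the 4 arrays compared (-0.71 to -0.51, adjusted p 0.0715 to 0.319), and that of Ccne2 without the second vehicle array or either 4OHT array (-0.91 to -0.59, adjusted p 0.0919 to 0.491). At 60 h Ccne1 (-0.72 to -0.55, adjusted p 0.0528 to 0.209), Ccna2 (-0.58 to -0.52, adjusted p 0.0587 to 0.109) and Ccnb2 (-0.59 to -0.48, adjusted p 0.107 to 0.226) lost theirs without the first vehicle or the first 4OHT array, and Ccne2 (-0.76, adjusted p = 0.0528) without the first 4OHT array. With each gene's own spread in place of limma's moderated one, 0 cyclins were called at either time. Of all genes, 0% were then called at 36 h and 1.25% at 60 h. At each time 4 cyclins had an unadjusted p under 0.05, as did 11.1% of genes at 36 h and 16.8% at 60 h.

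**Figure D2:**
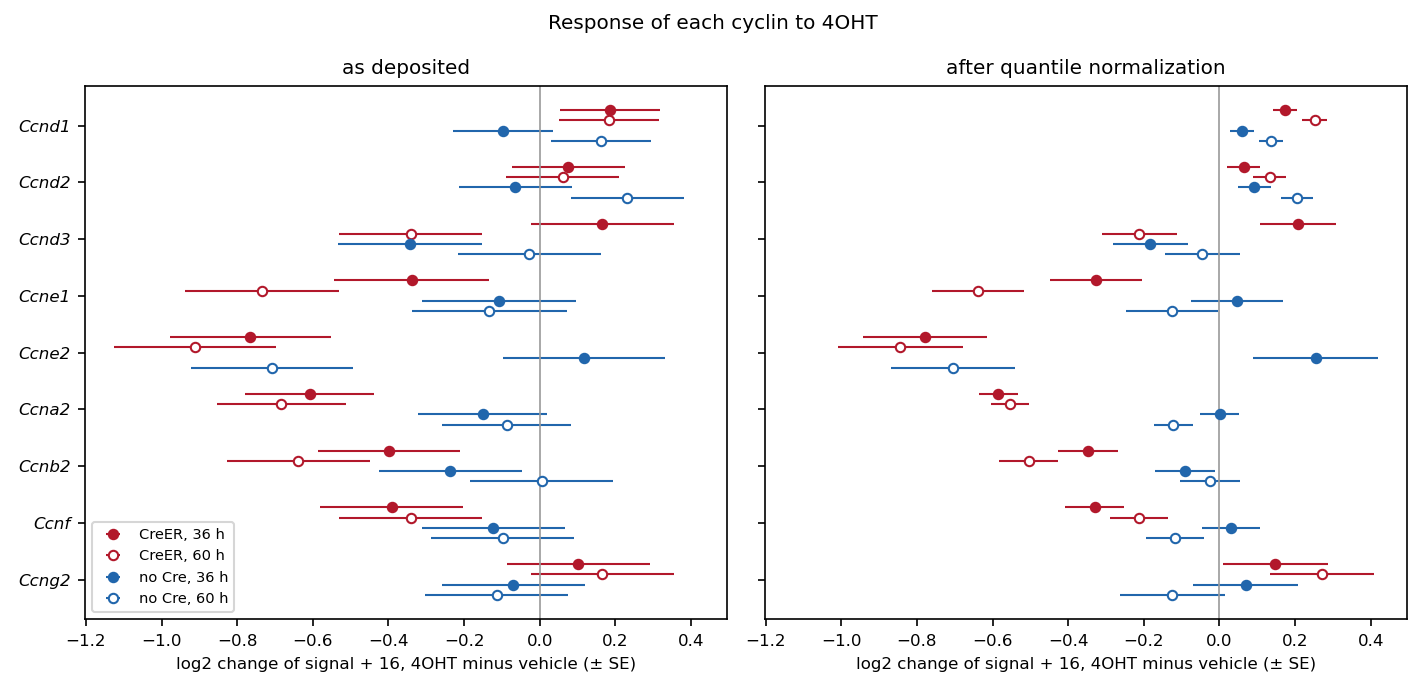
Change of each cyclin after 4OHT (horizontal axis, log2 of signal + 16, 4OHT minus vehicle, with SE from limma) in CreER and no-Cre cultures at 36 h and 60 h, as deposited on the left and after quantile normalization on the right. The CreER points of Ccne1, Ccne2, Ccna2, Ccnb2 and Ccnf lie left of 0 at both times, and Ccne2 without Cre at 60 h lies among them.

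In cultures without Cre, where 4OHT has no recombinase to act on, no cyclin passed the test as deposited, and Ccne2 had the largest difference, at 60 h. Over both times 0 of the 9 cyclins were called in limma, with 0 at an unadjusted p under 0.05, where 0.0656% of genes were called and 2.94% were at an unadjusted p under 0.05. After quantile normalization 1 was called, Ccnd2, higher at 0.15 (adjusted p = 0.0362), where 0.814% of genes were called. Ccne2 without Cre had 197 and 189.9 with 4OHT at 36 h, against 168 and 187 with vehicle, and 87.4 and 115 with 4OHT at 60 h, against 159 and 191 with vehicle. The 4OHT arrays were thus slightly above the vehicle arrays at 36 h and below them at 60 h. At 60 h the change was -0.71 (SE 0.21, adjusted p = 0.216) as deposited, where 0.171% of genes were called, and -0.70 (adjusted p = 0.0213) after quantile normalization, where 7.42% were. Its CreER change at 60 h was -0.91, from separate arrays.

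The other S and G2 cyclins without Cre gave the following signals. Ccna2 had 2231 and 2082 with 4OHT at 36 h against 2409 and 2378 with vehicle, and 2019 and 1649 with 4OHT at 60 h against 1853 and 2030.3 with vehicle. Ccne1 had 174 and 162 with 4OHT at 36 h against 183 and 181 with vehicle, and 185 and 131 with 4OHT at 60 h against 172 and 172 with vehicle. At 36 h the 4OHT arrays of both genes lay below the vehicle arrays by small margins, and at 60 h they overlapped. Ccnb2 had 1185 and 1007 with 4OHT at 36 h against 1299.5 and 1280.3 with vehicle, and 1125 and 862 with 4OHT at 60 h against 945 and 1019 with vehicle. Ccnf, also split by small margins at 36 h, averaged 615 ± 32.5 with 4OHT and 671 ± 41.0 with vehicle at 36 h (SD, n = 2 each), and 515 ± 57.9 with 4OHT and 551 ± 8.23 with vehicle at 60 h. At 36 h 6 cyclins had both 4OHT arrays below both vehicle arrays, and so did 52.2% of all genes. Array medians of that time were 109 and 113 with 4OHT, against 118 and 133 with vehicle, and the part of this brightness in the result was not tested. At 60 h only Ccne2 of the 9 did, where 7.98% of genes did. Both 4OHT arrays were above in 1 cyclin at 36 h, Ccne2, and in 0 at 60 h, where 1.55% and 15.4% of genes were.

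None of the D-type cyclins nor Ccng2 passed the test after 4OHT without Cre as deposited. Ccnd1 had 7514 and 7047 with 4OHT at 36 h against 7698 and 7874 with vehicle, and 8464 and 7169.9 with 4OHT at 60 h against 6453 and 7497 with vehicle. Ccnd3 had 322 and 367 with 4OHT at 36 h against 426 and 456 with vehicle, and 469.8 and 384 with 4OHT at 60 h against 424 and 442 with vehicle. Both genes had 4OHT arrays below vehicle arrays at 36 h and overlapped at 60 h. Ccnd2 had 3011 and 2745 with 4OHT at 36 h against 2866 and 3155 with vehicle, and 3472 and 2928 with 4OHT at 60 h against 2503 and 2939.6 with vehicle. Ccng2 had 497 and 378 with 4OHT at 36 h against 467 and 445 with vehicle, and 424 and 282 with 4OHT at 60 h against 361 and 391 with vehicle. Both of these overlapped at both times. After quantile normalization Ccnd1 and Ccnd2 were called higher at 60 h, at 0.14 (adjusted p = 0.0215) and 0.20 (adjusted p = 0.0134).

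The test of the difference between the 4OHT responses of CreER and no-Cre cultures over both times called 0 of the 9 cyclins in limma as deposited, with 4 at an unadjusted p under 0.05, where 2.34% of genes were called and 11.2% were at an unadjusted p under 0.05. Ccna2 came closest (log2 change -0.53, SE 0.17, adjusted p = 0.0741), and with the actin ratio as a covariate it was called at -0.57 (adjusted p = 0.0129). The others at an unadjusted p under 0.05 were Ccne2 at -0.54 (SE 0.21), Ccne1 at -0.42 (SE 0.20) and Ccnb2 at -0.40 (SE 0.19). After quantile normalization 4 cyclins responded lower in CreER cultures, Ccna2 at -0.51 (adjusted p = 1.13e-05), Ccnb2 at -0.37 (adjusted p = 0.00494), Ccne1 at -0.44 (adjusted p = 0.0192) and Ccne2 at -0.59 (adjusted p = 0.0217), and Ccnd1 responded higher at 0.11 (adjusted p = 0.0214). Of all genes, 19.3% were then called. The calls thus depended on the scaling, while the sizes of the differences stayed close and their SE became smaller, at 0.05 for Ccna2, 0.08 for Ccnb2, 0.12 for Ccne1 and 0.16 for Ccne2 after quantile normalization. The pooled difference of Ccne2 was not alike at both times. After quantile normalization its responses were -0.78 with CreER and 0.25 without Cre at 36 h. At 60 h they were -0.84 and -0.70, closer to each other. The difference between genotypes at each time alone was not tested.

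Between CreER and no-Cre cultures under vehicle, 3 of the 9 cyclins were called, which is near the share of all genes. Over both times 1 cyclin was higher in CreER cultures and 2 were lower, where 7.97% of genes were higher, 26.6% lower and 34.5% called in all. Ccnd2 had a lowest signal of 4871, a median of 5409 and a highest of 6157 over the 8 CreER arrays, against a lowest signal of 2503, a median of 2934 and a highest of 3472 over the 8 arrays without Cre. The ranges were apart, and under vehicle the change was 0.87 (SE 0.11, adjusted p = 6.51e-15). Ccnb2 went the other way, with a lowest signal of 303, a median of 515 and a highest of 714 over CreER arrays, against a lowest signal of 862, a median of 1072 and a highest of 1299.5 without Cre. Its ranges were apart as well (log2 change -0.93, SE 0.13, adjusted p = 7.22e-11), so that CreER cultures with vehicle had less Ccnb2 than any culture without Cre.

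Ccnd1 was lower in CreER cultures under vehicle, with a lowest signal of 5439.6, a median of 5744 and a highest of 6264 over 4 arrays, against a lowest signal of 6453, a median of 7597 and a highest of 7874 without Cre (log2 change -0.35, SE 0.09, adjusted p = 0.00129). Its ranges were apart under vehicle and overlapped over all arrays. The call was lost with the actin ratio as a covariate, at -0.20 (adjusted p = 0.270). The change was -0.17 (adjusted p = 0.00265) after median scaling and -0.33 (adjusted p = 9.47e-09) after quantile normalization. After quantile normalization 3 more cyclins were called under vehicle, Ccna2 higher at 0.23 (adjusted p = 6.02e-05), Ccne1 higher at 0.25 (adjusted p = 0.0240) and Ccnf lower at -0.15 (adjusted p = 0.0287), where 55.2% of genes were. The vehicle arrays of this comparison are also those that the 4OHT changes were set against.

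Ccna2, Ccnb2 and Ccnf, cyclins of S phase and G2, were lower at the later time in CreER cultures. At 60 h against 36 h over both treatments, 3 cyclins were lower and 0 higher, where 3.58% of genes were lower and 5.28% called in all. They were Ccna2 (log2 change -0.54, SE 0.12, adjusted p = 4.55e-04), Ccnb2 (log2 change -0.56, SE 0.13, adjusted p = 0.00152) and Ccnf (log2 change -0.56, SE 0.13, adjusted p = 0.00148). The call of Ccnb2 was lost without the second 4OHT array of 36 h, at -0.50 (adjusted p = 0.0563). With each gene's own spread only Ccna2 was called, at an adjusted p of 0.0482, where 1.05% of genes were. Ccng2 had the one upward change near the threshold, 0.36 (adjusted p = 0.0990) as deposited and 0.41 (adjusted p = 0.00756) after quantile normalization, when 4 cyclins and 22.8% of genes were called. Neither E-type cyclin passed the test, with -0.25 for Ccne1 (adjusted p = 0.436) and -0.28 for Ccne2 (adjusted p = 0.389).

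Without Cre, 0 cyclins were called between 60 h and 36 h in limma as deposited, with 5 at an unadjusted p under 0.05, where 4.10% of genes were called and 21.4% were at an unadjusted p under 0.05. Ccne2 had the lowest adjusted p (-0.43, SE 0.15, adjusted p = 0.0770). The other cyclins at an unadjusted p under 0.05 were lower at 60 h too, with adjusted p of 0.176 to 0.230. They were Ccna2 (-0.27), Ccnb2 (-0.27), Ccnf (-0.26) and Ccng2 (-0.29). The second Ccna2 probe set was called in this comparison, at -0.39 (limma, adjusted p = 0.0297 over all probe sets). After quantile normalization Ccna2 (-0.14, adjusted p = 0.0110), Ccne2 (-0.43, adjusted p = 0.0151) and Ccnf (-0.17, adjusted p = 0.0357) were lower at 60 h, and Ccnd2 (0.13, adjusted p = 0.00666) and Ccnd3 (0.21, adjusted p = 0.0362) higher, where 27.1% of genes were called. The actin ratio of all 4 no-Cre arrays at 36 h was low. Without Cre that ratio was 0.548 to 0.666 at 36 h and 0.773 to 0.891 at 60 h, so a fit with it cannot separate it from time. With it as a covariate on the quantile-normalized values limma called 0 of the 9 cyclins, where 0.0656% of genes were called. At an unadjusted p under 0.05 there was 1 cyclin, beside 11.5% of genes. Ccna2 then had the lowest adjusted p (-0.25, SE 0.08, adjusted p = 0.284), Ccnd2 had 0.11 (adjusted p = 0.599), and Ccnd3 turned to -0.14 (SE 0.13). Whether time acts differently by genotype was not tested.

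**Figure D3:**
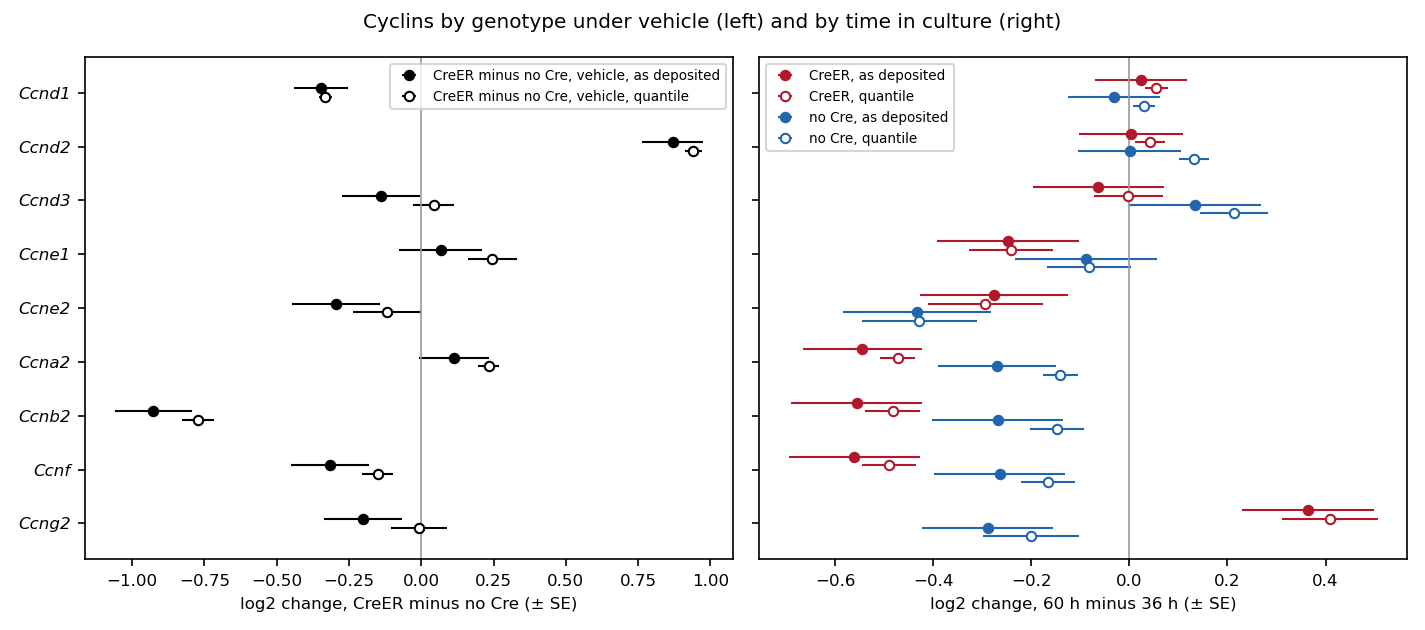
Change of each cyclin between genotypes under vehicle (left, log2, CreER minus no Cre) and with time (right, log2, 60 h minus 36 h, over both treatments), with SE from limma; filled points are as deposited and open points after quantile normalization. Ccnd2 at 0.87 and Ccnb2 at -0.93 stand apart on the left, and Ccna2, Ccnb2 and Ccnf of CreER cultures lie furthest left on the right.

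Ordered over the 8 groups by mean signal, each cyclin had a ladder of 7 steps, and the number that separated neighbouring groups beyond the range of their arrays differed between cyclins. Neighbours were apart at 4 steps for Ccnb2 and Ccne2, 3 for Ccna2, 2 for Ccnd1, Ccne1 and Ccnf, 1 for Ccnd2 and Ccnd3, and 0 for Ccng2. The lowest and the highest group of Ccna2 were CreER cultures with 4OHT at 60 h (1213 ± 118) and CreER cultures with vehicle at 36 h (2788 ± 269), as mean ± SD of 2 arrays. Those of Ccne1 were CreER cultures with 4OHT at 60 h (103 ± 1.20) and CreER cultures with vehicle at 36 h (189.8 ± 7.09). Those of Ccne2 were CreER cultures with 4OHT at 60 h (61.8 ± 11.9) and no-Cre cultures with 4OHT at 36 h (193 ± 4.72). CreER cultures with 4OHT at 60 h were thus the lowest group for each of these. They were also the lowest for Ccnb2, Ccnf and Ccnd3, where the highest were no-Cre cultures with vehicle at 36 h. This order is of signals as deposited, and these groups hold the dimmest (median 92.2) and the brightest array (132.6). After quantile normalization (log2) Ccnd3 read 8.75 and 8.51 in CreER cultures with 4OHT at 60 h. No-Cre cultures at 36 h read 8.61 and 8.63 with vehicle, and 8.30 and 8.58 with 4OHT. Ccnf then read 9.25 and 9.32 in CreER and 9.18 and 9.24 in no-Cre cultures with vehicle at 36 h. The part of brightness was not tested. For Ccnd1 the ends were CreER cultures with vehicle at 36 h (5744 ± 373) and no-Cre cultures with 4OHT at 60 h (7817 ± 915), and for Ccnd2 no-Cre cultures with vehicle at 60 h (2721 ± 309) and CreER cultures with 4OHT at 60 h (5514 ± 909.7). For Ccng2 they were CreER cultures with vehicle at 36 h (318 ± 43.5) and CreER cultures with 4OHT at 60 h (458 ± 84.8), with every pair of neighbours overlapping.

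Cyclins with several probe sets were read again on each. The Ccnd1 probe sets of brightness rank 2 and 3 gave 0.29 (adjusted p = 0.0523) and 0.20 (adjusted p = 0.304) after 4OHT in CreER cultures over both times, the same sign as the brightest. Between genotypes under vehicle they disagreed, with -0.35 on the brightest, -0.41 on the second and 0.26 (adjusted p = 0.0765) on the third. All 7 Ccnd2 probe sets were higher in CreER cultures under vehicle, by 0.70 to 1.62. After 4OHT in CreER cultures at 36 h the sixth was called higher, at 0.89 (adjusted p = 0.00637), and no other Ccnd2 probe set was called. Its arrays read 279 and 241 with 4OHT, against 134 and 131 with vehicle. The second probe set of Ccng2 gave 0.13 after 4OHT in CreER cultures and 0.26 between 60 h and 36 h there, neither past the test (adjusted p = 0.617 and 0.364).

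Lower-ranked probe sets of the D-type cyclins separated the no-Cre arrays by time, and the fifth Ccnd2 probe set also passed the test in CreER cultures. The third Ccnd1 probe set was higher at 60 h by 0.88 (adjusted p = 1.03e-11) and the sixth Ccnd2 probe set by 1.28 (adjusted p = 4.67e-14), while the brightest probe sets of both genes gave -0.03 (Ccnd1) and 0.00 (Ccnd2). The sixth Ccnd2 probe set read 92.1 and 128 with 4OHT at 60 h and 106 and 123 with vehicle at 60 h, against 34.1 and 30.3 with 4OHT at 36 h and 25.6 and 62.0 with vehicle at 36 h. All 4 of the 36 h arrays were below all 4 of the 60 h arrays. The fifth Ccnd2 probe set was higher at 60 h by 0.69 (adjusted p = 2.12e-05) without Cre and by 0.47 (adjusted p = 0.0187) in CreER cultures. There the third Ccnd1 and sixth Ccnd2 probe sets gave 0.24 and 0.17, with adjusted p of 0.298 and 0.710. The 36 h arrays without Cre are also the 4 with the lowest actin ratio, 0.548 to 0.666 against 0.773 to 0.891 at 60 h. In CreER cultures the ratio was 0.716 to 0.825 at 36 h and 0.720 to 0.882 at 60 h. The part of this ratio in these changes was not tested.

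**Figure D4:**
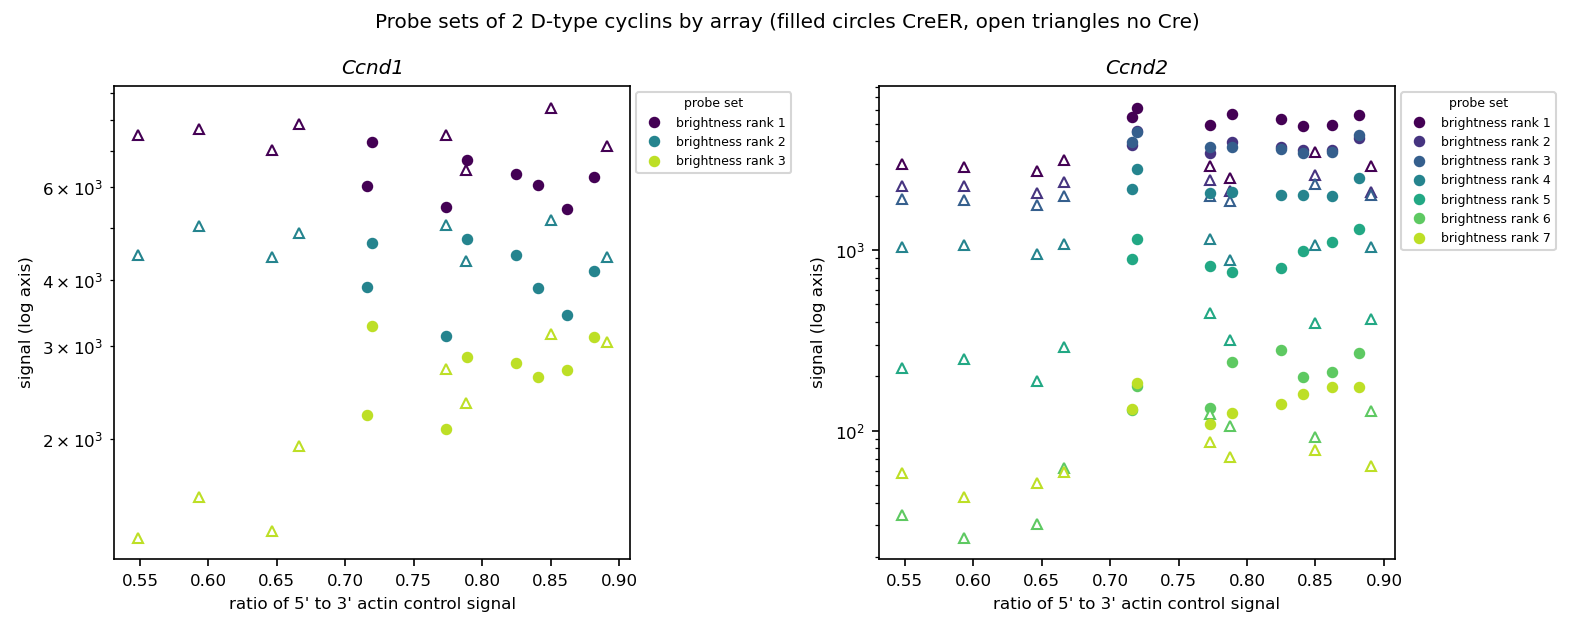
Signal (vertical axis, logarithmic) of the 3 Ccnd1 and 7 Ccnd2 probe sets on each array against that array's 5′ over 3′ actin ratio (horizontal axis); circles are CreER arrays and triangles no-Cre arrays. The brightest probe sets are level across the ratio within a genotype, and the third Ccnd1 and sixth Ccnd2 probe sets are low on no-Cre arrays with a ratio under 0.7.

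The genes most like each cyclin over the 16 arrays were named by Pearson's r on log2(signal + 16) minus each array's median, as a description, since the arrays share groups. For Ccna2 they were Nup85 (r = 0.98), Pole (r = 0.98), Nudcd1 (r = 0.98). For Ccne1 they were E2f8 (r = 0.94), Srsf1 (r = 0.92), Wdr43 (r = 0.92), of which E2f8 is an atypical E2F repressor. For Ccne2 they were Rab8b (r = 0.94), Ncapg2 (r = 0.93), Smarca5 (r = 0.93), of which Ncapg2 is a condensin II subunit. For Ccnf they were Ska2 (r = 0.97), Nusap1 (r = 0.96), Tpx2 (r = 0.96), all with known roles at the mitotic spindle. For Ccnb2 they were Cdr2 (r = 0.98), Fmr1 (r = 0.97), Khdrbs1 (r = 0.97), and for Ccnd2, Apln (r = 0.99), Slc6a6 (r = 0.99), Clec14a (r = 0.99). For Ccnd1 they were Gnas (r = 0.93), Fbxo25 (r = 0.93), Tspan15 (r = 0.93), for Ccnd3, Farsa (r = 0.81), Dcaf15 (r = 0.79), Zfp428 (r = 0.79), and for Ccng2, Cbr4 (r = 0.86), 1110038F14Rik (r = 0.83), Dctn1 (r = 0.83). Ccnd3 and Ccng2 had the least close neighbours.

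The partners of the cyclins were read from lists of genes by role, in the comparison of 4OHT with vehicle in CreER cultures over both times. Of 8 kinases and assembly factors tested, 2 were lower and 0 higher (median -0.16, against -0.07 for all genes): Cdk1, the kinase of mitosis (-0.41, adjusted p = 0.00419), and Cks2, a small kinase-binding subunit (-0.40, adjusted p = 0.00594). Cdk2 and Cdk4, the partners of the G1 and S cyclins, gave -0.01 and -0.14, with adjusted p of 0.981 and 0.478. Of the 5 genes that switch these kinases on or off, 3 were lower (median -0.41): the activating phosphatases Cdc25c (-0.57, adjusted p = 0.00116) and Cdc25a (-0.55, adjusted p = 0.00134) and the inhibitory kinase Wee1 (-0.41, adjusted p = 0.0244). Genes of both effects on the kinases thus fell in this list. After quantile normalization 5 of the 8 and 3 of the 5 were lower and 0 higher, beside 19.1% and 19.6% of all genes.

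Of all genes tested, 8.36% were lower and 4.00% higher in this comparison as deposited. Of 16 genes of cyclin destruction tested, 3 were lower and 0 higher (median -0.16): Skp2, an F-box protein known for Cdkn1b turnover (-0.64, adjusted p = 8.01e-05), Cdc20, an activator of the anaphase-promoting complex (-0.36, adjusted p = 0.0193), and Cul1, the SCF scaffold (-0.38, adjusted p = 0.0383). Of 5 kinase inhibitors tested, 2 were higher and 1 lower (median 0.06): Cdkn1a, a p53 target (0.97, adjusted p = 2.17e-13), and Cdkn2b (0.52, adjusted p = 0.00347) rose, and Cdkn2c fell by 0.37 (adjusted p = 0.0326). Of 15 regulators of cyclin gene transcription, 6 were lower and 1 higher (median -0.34). E2f8 fell by 1.03 (adjusted p = 8.05e-12), the pocket protein gene Rbl1 by 0.79 (adjusted p = 4.84e-07) and Mybl2, an activator of G2 genes, by 0.65 (adjusted p = 4.41e-04) on the log2 scale, while the forkhead factor gene Foxo3 rose by 0.93 (adjusted p = 8.86e-10). E2f1, an activator of S phase genes, gave -0.30 and did not pass (adjusted p = 0.126). Of 9 other cyclins tested, 1 was higher, Ccng1, a p53 target (0.82, adjusted p = 1.45e-08), and 0 were lower (median -0.09). After quantile normalization 4 of the 16 destruction genes were lower and 0 higher, 1 of the 5 inhibitors lower and 2 higher, 8 of the 15 regulators lower and 2 higher, and 0 of the 9 other cyclins lower and 2 higher, beside 19.1% of all genes lower and 19.6% higher.

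Without Cre, 0 genes of these 6 lists were called after 4OHT over both times, as deposited or after quantile normalization, where 0.0656% and 0.814% of all genes were. Some markers of other cell types also passed the test in CreER cultures, where 12.4% of all genes did as deposited and 38.8% after quantile normalization. Of 3 astrocyte markers tested of 6 listed, 1 was higher, S100b (1.05, adjusted p = 3.01e-12), and the summed signal of the 6 was 590.2 to 982 with 4OHT, against 435 to 590.3 with vehicle. S100b was the brightest of the 6, at a median signal of 454, and so the largest part of that sum. Gfap, Aqp4 and Slc1a2 were below the level tested. After quantile normalization all 3 tested astrocyte markers were higher, and of the 8 stem cell markers 2 were higher and 2 lower. Of 3 neuron markers tested of 9 listed, Syt1 was higher (0.49) and Map2 lower (-0.38), and the summed signal of the 9 was 1033 to 1568 with 4OHT, against 1562 to 1826 with vehicle. Map2, at a median signal of 1605, made up most of that sum, and Syt1 had a median of 112. Of 8 stem cell markers tested, 3 were lower, Pax6 (-0.40), Slc1a3 (-0.35) and Fabp7 (-0.27), and the summed signal of the 10 listed was 15591 to 19676 with 4OHT, against 16806 to 20642 with vehicle. Of 4 oligodendrocyte markers and 1 microglia marker tested, 0 were called as deposited, and 1 oligodendrocyte marker was higher after quantile normalization. The part of these shifts in the cyclins' changes was not tested.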

How the data were processed

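RNA of 16 neural stem cell cultures was measured on 1 array each, after TRIzol extraction and biotin labelling by in vitro transcription, per the labels' protocols. The deposited values are 1 linear intensity (signal) per probe set and array, and MAS5 is named per the submitters' processing notes; its version and scaling target are not given in the sources used here. Precision is limited by the number of arrays, 2 a group.

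Samples were grouped by title. The table held 22690 probe sets, 64 of them controls that were set aside; 20380 others had 1 gene symbol in the platform annotation, 691 several and 1555 none, and 20351 were matched by Entrez ID to the RefSeq gene table (GRCm38.p6), with 0 symbols changed. A gene was its brightest probe set by mean log2(signal + 16). Genes at or above the 40th percentile of all probe sets (6.07, a signal of 51.1) were tested, 7619 in all. The signals were not rescaled in the main values. The change of dim genes is understated on this scale.

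Contrasts of 8 group means were fitted with limma 3.58.1 (R 4.3.3; lmFit, contrasts.fit, eBayes with trend), 2-sided, with Benjamini-Hochberg adjustment over all genes of a contrast, also for the lists. The prior degrees of freedom were infinite, so the spread of a gene came from the trend over all genes. The CreER contrast of 4OHT over both times was tested on simulated data of 7619 genes, where 51 of 67 changes of 1.5-fold and 66 of 67 of 2-fold were found beside 9 false calls. The simulated noise was independent between genes and held no differences in brightness between whole arrays, so these rates may not hold for the real arrays. Alternatives were median scaling, quantile normalization, pseudocounts of 1 and 64, no filter, no trend, no moderation, only the groups compared, a replicate block, the second probe set, the actin ratio as covariate and leaving out each array; the combinations with quantile normalization were added after seeing the data. The cyclins and the gene lists were chosen with earlier results of these data known. All 9 measured cyclins are described, and up to 4 genes of a list with the smallest p are named; E2f1, Cdk2, Cdk4 and the marker genes were picked otherwise, after their values were seen. Sequences came from RefSeq promoter tables.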

Additional observations from a re-analysis of the deposited data

Results flagged for a closer look

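The sixth brightest probe set of Ccnd2 differed between times in its response to 4OHT in CreER cultures: the difference, 60 h minus 36 h, was -1.21 (limma, adjusted p = 0.0179 over all probe sets). The change was -0.32 at 60 h (adjusted p = 0.460) and 0.89 at 36 h (adjusted p = 0.00637), where it was called. The brightest Ccnd2 probe set had a difference of -0.02 (adjusted p = 1.0) in the same test. The actin 5′ to 3′ ratios of the vehicle arrays were 0.862 and 0.882 at 60 h, against 0.716 and 0.773 at 36 h; the part of this in the difference was not tested.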

How the results depend on the processing

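Each count of cyclins called was recomputed under the alternatives, and most counts close to the main one are left out below. For the 4OHT response of CreER cultures over both times it was 4, and 7 after median scaling, quantile normalization, or quantile normalization without moderation or with the actin covariate. At 36 h it was 2, but 4 after median scaling, 5 after quantile normalization, alone or with either addition, 1 without the trend, 1 with the actin covariate, and 0 without the filter and 0 without moderation. At 60 h it was 4, but 7 after quantile normalization, 0 with only the groups compared and 0 without moderation. Median scaling at 60 h added Ccnd1 (0.31, adjusted p = 9.02e-04) and Ccnd2 (0.19, adjusted p = 0.0311), both higher, where 23.5% of genes were called. Without Cre the count was 0, but 1 after quantile normalization and 2 with the actin covariate added. At 60 h alone without Cre it was 0, but 1 after median scaling, 3 after quantile normalization and 2 with either addition. For the difference of the responses between genotypes it was 0, but 5 after median scaling, 5 after quantile normalization, alone or with the actin covariate, 4 with no moderation added, and 1 with the actin covariate alone. For CreER against no Cre under vehicle it was 3, but 5 after median scaling, 6 after quantile normalization, with or without moderation, 5 with the actin covariate added, and 2 with that covariate alone, where Ccnd1 lost its call. For 60 h against 36 h it was 3 in CreER cultures, but 1 without moderation, and 0 without Cre, but 5 after median scaling, 5 after quantile normalization, 4 without moderation added, and 1 with only the groups compared, without the trend or on second probe sets; the 5 of quantile normalization became 0 with the actin covariate added. Where a count after median scaling is given, the share of all genes called rose as well. It became 33.0% for 4OHT with CreER when the times were pooled, and 19.2% for the earlier time alone. Without Cre it became 2.4% for 4OHT at 60 h and 46.1% for time. For the difference of the responses it became 15.7%, and for genotype under vehicle 52.1%. With the actin covariate alone, 2.65% of genes were called for 4OHT with CreER at 36 h, 3.32% for the difference and 16.8% for genotype. Without moderation, 0% were called at 36 h and 1.25% at 60 h with CreER, and 1.05% for time there. With quantile normalization and the actin covariate the shares were 40.1% for 4OHT with CreER over both times and 20.8% at 36 h. They were 1.33% and, at 60 h, 6.12% without Cre, 20.4% for the difference and 42.2% for genotype. The cause of the shifts in these counts was not tested.

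Leaving out 1 array at a time, the counts ran from 3 to 5, from 0 to 2 at 36 h and from 0 to 4 at 60 h for 4OHT in CreER cultures, from 0 to 1 for the difference between genotypes, from 3 to 4 for genotype under vehicle and from 2 to 4 for time in CreER cultures. Replicate numbers were not used as pairs in the main fit, and whether same-numbered arrays shared a culture could not be settled here. Their deviations correlated at -0.123 to 0.311 over 28 pairs of groups, 6 of them over 0.1. The highest was between 4OHT and vehicle without Cre at 36 h, and the same pair in CreER cultures gave 0.124. The replicate block left the counts at 4, 2 and 4 for 4OHT in CreER cultures, 3 for genotype, 3 for time and 0 for the others.

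The values below changed sign against the value as deposited, and none was called as deposited or under the alternative given, though some were called under another, among them, after quantile normalization, Ccna2 between genotypes and Ccna2, Ccnd2 and Ccnd3 between times without Cre. After 4OHT in CreER cultures Ccnd2 ran from -0.016 to 0.152 over both times and from -0.108 to 0.229 at 60 h without 1 array, and gave -0.068 with the actin covariate at 60 h; Ccnd3 ran from -0.195 to 0.019 without 1 array and gave 0.017 with the actin covariate and quantile normalization. Ccnd2 after 4OHT without Cre gave -0.035 on the second probe set. Between genotypes Ccne1 ran from -0.025 to 0.158 without 1 array and Ccna2 gave -0.058 on the second probe set. For 60 h against 36 h without Cre, Ccnd2 gave -0.030 after median scaling and -0.061 to 0.062 without 1 array, Ccnd3 -0.14 with quantile normalization and the actin covariate, and Ccna2 0.020, Ccnb2 0.086 and Ccng2 0.24 with the actin covariate. Of 45 further changes called neither as deposited nor after either scaling, 31 changed sign under at least 1 alternative.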
